A study of Caenorhabditis elegans with 2 samples.

Results

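The regions described here are the strong intronic binding regions of VAB-15 in starved first-stage (L1) larvae of Caenorhabditis elegans. They were chosen by rank and by place. Of 30000 regions in the authors' pooled list, the 2000 of highest signal were taken. Of these, 320 (16%) were kept, since their summits lay inside a protein-coding gene, outside every exon of a protein-coding transcript and not within the 1000 bp upstream of any protein-coding transcript start. The signal therefore chose the members, and it is given below as a description only. The last region inside the choice lay in daf-2, the insulin receptor gene, at pooled rank 1997 with a signal of 84.4. The first intronic region outside it lay in W04A8.6 at rank 2009 with a signal of 84.2, so the choice cuts through a continuum.

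All libraries belong to 1 group of 2 biological replicates of strain XIL99. The worms were L1 larvae of mixed sex that had been starved after bleaching, and both replicates carried the same CRISPR insertion at vab-15, which fuses a GFP-FLAG tag to the C-terminus of the protein. Chromatin of whole animals was sonicated and recovered with an antibody to GFP, so no signal can be assigned to a cell type, and a region bound in few cells cannot be told apart from one bound weakly in many. The group is 1 tagged strain with no untagged or mutant group beside it, so the comparisons set these regions against other regions of the same list. Those were 1102 strong promoter regions (the regions of the same 2000 with a summit 1 to 1000 bp upstream of a coding start) and 3536 weaker intronic regions (intronic by the same rule, among the 15000 of lowest signal, overlapping no peak of the authors' optimal set). The weaker regions had a -log10 q of 0.136 to 0.324, against 2.03 to 3.05 in members. Comparisons with them therefore set regions with q at or under 0.01 against regions with little evidence of binding, close to background. Sequencing depth is not given in the lists.

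VAB-15 belongs to the Msx family of homeodomain transcription factors and is needed for touch receptor neurons to develop. Homeodomains recognise short sequences around a TAAT core, of which TAATTG and its reverse complement CAATTA are the form searched for here. Introns of C. elegans genes can hold enhancers and internal promoters, and they also host independent genes for small RNAs. Among these are tRNA genes, which RNA polymerase III transcribes from control elements inside the gene, and snoRNA genes, whose products guide the modification of ribosomal RNA.

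Windows reaching 50 bp to either side of the summit show the sequence of these regions, read from the plus strand of the RefSeq genome WBcel235, the assembly named ce11 by the authors. The first 6 are the strongest members with TAATTG or CAATTA (capitals) whose windows hold no exon base and lie on chromosomes II to V and X.
rpoa-1, chrII:13681241-13681341: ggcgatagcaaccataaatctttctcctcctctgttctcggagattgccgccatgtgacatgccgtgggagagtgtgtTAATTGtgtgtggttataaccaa
pqn-41, chrIII:1921399-1921499: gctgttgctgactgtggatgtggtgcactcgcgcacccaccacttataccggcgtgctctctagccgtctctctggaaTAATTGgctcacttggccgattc
vab-15, chrX:9848370-9848470: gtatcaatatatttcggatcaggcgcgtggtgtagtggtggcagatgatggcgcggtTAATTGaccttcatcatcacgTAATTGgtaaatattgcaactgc
rin-1, chrV:14800524-14800624: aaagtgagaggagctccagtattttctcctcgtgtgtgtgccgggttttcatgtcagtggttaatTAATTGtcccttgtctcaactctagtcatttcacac
twk-42, chrV:17728878-17728978: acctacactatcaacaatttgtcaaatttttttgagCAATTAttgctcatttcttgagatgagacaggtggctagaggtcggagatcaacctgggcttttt
T13F2.4, chrIV:9790848-9790948: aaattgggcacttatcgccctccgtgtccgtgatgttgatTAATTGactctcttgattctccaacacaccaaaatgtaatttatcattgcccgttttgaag
The intron of vab-15 itself holds 2 copies, whose centres lie 10 and 31 bp above the summit coordinate.

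The 3 strongest members without TAATTG, under the same limits, show what the other summits look like, with any GAGAGA or TCTCTC in capitals.
kcc-2, chrIV:6047503-6047603: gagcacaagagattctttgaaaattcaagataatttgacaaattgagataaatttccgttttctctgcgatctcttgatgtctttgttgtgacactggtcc
fkh-7, chrIV:5591281-5591381: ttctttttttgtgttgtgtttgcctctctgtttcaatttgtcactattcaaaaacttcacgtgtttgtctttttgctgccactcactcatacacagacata
zfp-1, chrIII:8800304-8800404: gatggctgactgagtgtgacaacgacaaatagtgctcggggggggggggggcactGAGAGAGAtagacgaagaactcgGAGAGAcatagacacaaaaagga
Of these, the zfp-1 window held 3 overlapping or separate copies of GAGAGA, whereas kcc-2 and fkh-7 held none. A further set of windows covers tRNA genes inside introns, with the bases of the tRNA gene in capitals. These are the 3 strongest members near a tRNA gene on chromosomes II to V and X, with no exon of a coding transcript in the window, a set chosen after the values were seen.
col-85, chrII:12494727-12494827: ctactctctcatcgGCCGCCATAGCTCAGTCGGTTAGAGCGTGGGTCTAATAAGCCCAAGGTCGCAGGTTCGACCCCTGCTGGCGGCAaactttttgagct
C14B9.3, chrIII:8109586-8109686: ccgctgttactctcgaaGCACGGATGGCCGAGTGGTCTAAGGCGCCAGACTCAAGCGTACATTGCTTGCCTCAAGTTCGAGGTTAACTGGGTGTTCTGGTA
ZC455.1, chrV:12780411-12780511: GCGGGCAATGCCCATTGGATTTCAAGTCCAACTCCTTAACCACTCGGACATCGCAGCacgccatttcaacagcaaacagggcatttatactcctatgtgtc
In col-85 the whole tRNA gene of 74 bp fell inside the window around the summit.

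The pooled signal of the members had a median of 102 and ran between 84.4 and 502. The strongest member lay in the first intron of kcc-2, which encodes a cotransporter of potassium and chloride, at chrIV:6047441-6047659. Its signal was 350 in replicate 1 and 148 in replicate 2, and it ranked 4 in the pooled list and 4 in each replicate's list. Behind it came the first intron of fkh-7, a forkhead transcription factor gene, at chrIV:5591232-5591423, with 297 in replicate 1 and 124 in replicate 2 (pooled rank 10). The intron of unc-49, which encodes subunits of the muscle GABA receptor, followed at chrIII:10526049-10526259, with 259 in replicate 1 and 126 in replicate 2 (pooled rank 20). All 3 stood near the top of both replicates.

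The other hosts of the 20 strongest members had pooled signals between 199 and 302 and varied in function. They included pck-2 (a phosphoenolpyruvate carboxykinase), rpoa-1 (the largest subunit of RNA polymerase I), pqn-41 (a glutamine-rich protein), zfp-1 (a PHD finger chromatin protein) and lag-1 (the DNA-binding factor of Notch signalling). The rest were vab-15, Y56A3A.7, M60.4, rin-1 (a Rab exchange factor), epg-9 (autophagy), dhc-4 (a dynein heavy chain), ints-8 (an Integrator subunit), anc-1 (nuclear anchorage), tbc-6 (a predicted Rab GTPase-activating protein), hmt-1 (a heavy metal tolerance transporter), marc-4 and mom-1 (a Porcupine-like protein of Wnt secretion). The largest difference in rank between the replicates among these 20 was in hmt-1, at rank 135 in replicate 1 and 833 in replicate 2.

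Most members were found again in each replicate's own list, but less often near its top. A summit lay inside any of the 30000 regions of replicate 1 for 319 of 320 members and of replicate 2 for 308. It lay inside the 2000 strongest of replicate 1 for 250 members (78.1%), inside those of replicate 2 for 190 (59.4%), inside both for 136 (42.5%, exact Clopper-Pearson 95% interval 37.0 to 48.1%) and inside neither for 16 (5%). These intervals cover counting error only. Because the pooled list was made from the same libraries, this is a description. Across the 307 members found in both replicates the signals of replicate 1 and replicate 2 had a Spearman correlation of 0.193, over regions of the same 2 libraries that were selected on their pooled signal. The authors' optimal set holds the 990 peaks that pass their reproducibility threshold. By pooled rank, 129 members (40.3%) were among the 990 strongest regions, a count that follows from the signal. The overlap of members with the optimal peaks themselves is not given here.

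Agreement between the replicates fell with rank. Of members at pooled ranks 1 to 500, 56 of 58 were among the 2000 strongest of both replicates, against 324 of 346 strong promoter regions. Of those at ranks 501 to 1000 it was 47 of 73, against 185 of 291 promoter regions. At ranks 1001 to 1500 it was 29 of 94 against 50 of 229, and at ranks 1501 to 2000 it was 4 of 95 against 7 of 236. Since both sets were chosen on a pooled signal made from these libraries, the counts are a description and carry no test.

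**Figure D1:**
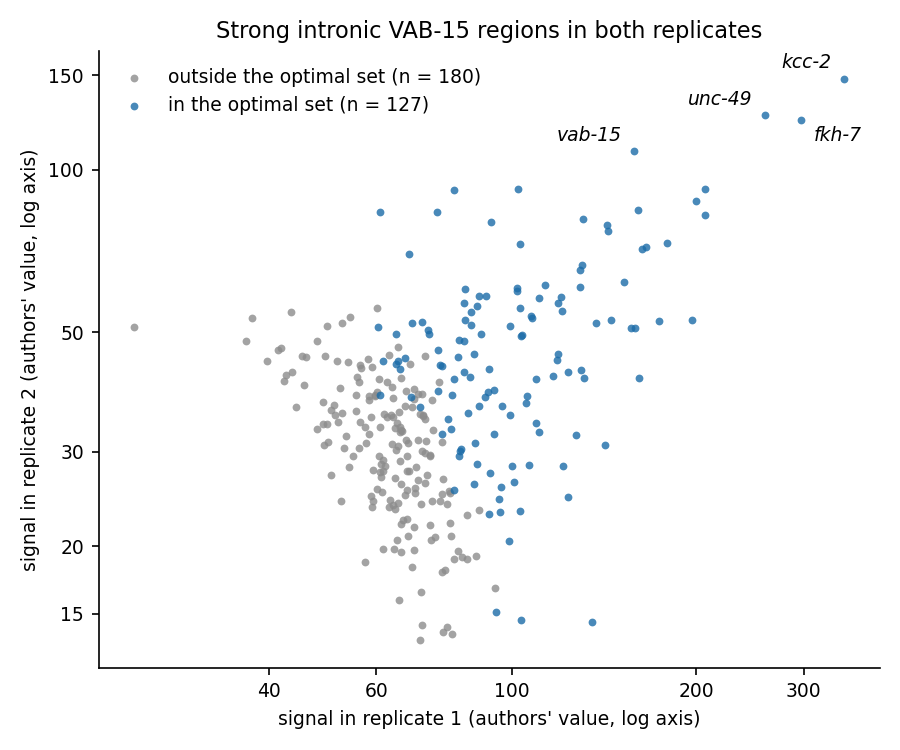
Signal of the strong intronic regions in replicate 1 (horizontal, log axis) and replicate 2 (vertical, log axis), for the 307 regions found in both lists. Blue points, labelled as the optimal set, are those of pooled rank 990 or better, and grey points are the rest. kcc-2, fkh-7, unc-49 and vab-15 are high in both replicates, and the empty lower left corner follows from the choice by pooled signal.

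The share of intronic summits was lower toward the top of the list. It was 11.6% of pooled ranks 1 to 500, 14.6% of ranks 501 to 1000, 18.8% of ranks 1001 to 1500 and 19% of ranks 1501 to 2000. Over all 30000 regions it was 22.3%. Promoter regions made up 55.1% of the 2000.

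The 320 members lay in 262 host genes and 284 introns. Of the hosts, 222 had 1 member, 27 had 2, 8 had 3 and 5 had 4, so that 40 hosts held 98 members. Neighbouring members overlapped in 6 pairs. The 5 hosts of 4 members were fkh-7, zfp-1, pkg-2 (a cGMP-dependent protein kinase gene), T28B11.1 and hlh-30 (the TFEB-like regulator of autophagy and lysosomal genes). In T28B11.1 all 4 fell in a single intron of 17091 bp and in pkg-2 in a single intron of 6824 bp. In fkh-7, 3 of 4 fell in the first intron of 16465 bp, with the strongest 6647 bp from the first annotated start. The members of hlh-30 were all of moderate signal, between 89.4 and 96.5.

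The order of neighbours within a host could differ between the replicates. In T28B11.1 the member of pooled signal 175 had 142 in replicate 1 and 30.9 in replicate 2, whereas the member of pooled signal 91.1 had 37.6 in replicate 1 and 53 in replicate 2. In pkg-2 the order of the pair compared was the same: the strongest member had 137 in replicate 1 and 51.9 in replicate 2. Its member at pooled rank 1271 had 87.5 in replicate 1 and 19.2 in replicate 2.

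Hosts with 3 members were pqn-41, ppfr-1 (a regulatory subunit of protein phosphatase 4), F49E2.5, spsb-1 (a SPRY and SOCS box protein), egl-27 (an MTA1-like transcriptional regulator), mbl-1 (the muscleblind splicing factor), lin-14 (the heterochronic transcription factor of L1 fates) and F09A5.3. The members of pqn-41 had pooled signals of 277, 175 and 173 and shared 1 intron of 7770 bp. Those of lin-14 had 126, 104 and 92.2 and lay 1943, 6499 and 7352 bp from its first start. Those of F09A5.3 had 109, 100 and 89.1, and the weakest of them had its summit inside the miRNA gene cel-mir-56.

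vab-15, the gene that carries the inserted tag, held 2 overlapping members in its last intron of 1046 bp. The stronger, at chrX:9848289-9848544, had a signal of 158 in replicate 1 and 108 in replicate 2 and lay 1145 bp from the annotated start. The other had 102 in replicate 1 and 92.0 in replicate 2 and lay 1352 bp from it. Both ranked higher in replicate 2 (30 and 50) than in replicate 1 (144 and 489).

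**Figure D2:**
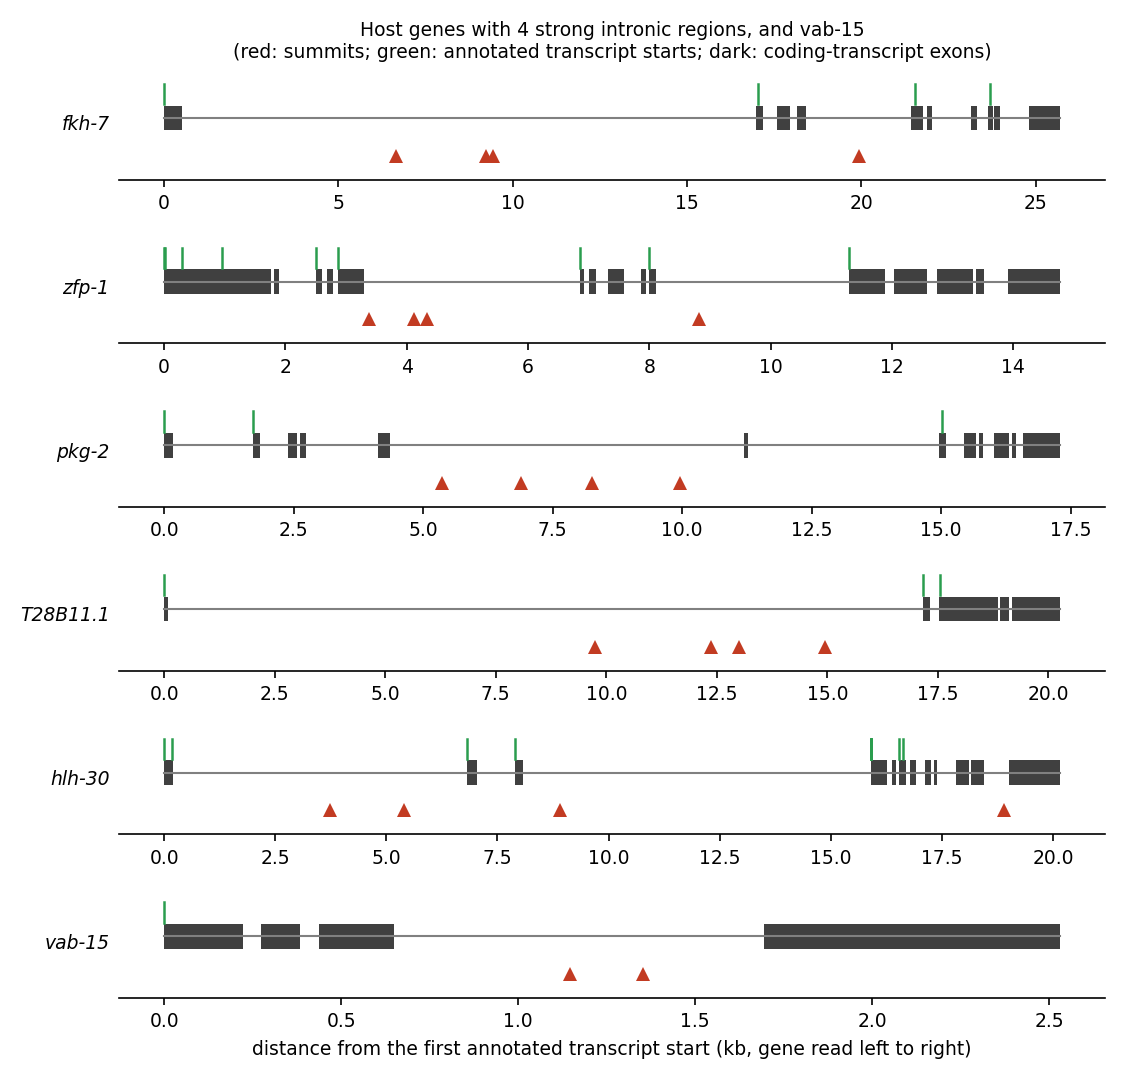
Maps of the 5 hosts of 4 members and of vab-15, each read in its own direction of transcription, with distance from the first annotated transcript start in kb on the horizontal axis. Dark boxes are exons of coding transcripts, green ticks annotated transcript starts and red triangles summits; in T28B11.1 and pkg-2 all 4 summits share 1 intron, and vab-15 has 2.

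The members lay in longer introns than weaker regions and more often in first introns. The exon-free stretch around the summit had a median of 2633 bp for members (quartiles 728 and 5951 bp), against 952 bp for weaker intronic regions (quartiles 340 and 2852 bp). The mean log10 length differed by 0.342 (permutation test of 100000 resamples, two-sided, adjusted p = 3.0e-05, from the smallest p they can give). Of members 151 (47.2%) were in the first intron of at least 1 coding transcript of the host, against 1148 weaker regions (32.5%). The odds ratio was 1.86 with a 95% interval of 1.48 to 2.34 (Fisher's exact test, two-sided, adjusted p = 8.3e-07). By this definition a first intron can lie far inside a gene with internal starts. The strongest member of zfp-1 counted, for instance, at 8819 bp from the first annotated start. The share was not adjusted for the number of annotated starts. Here and below p-values take regions as units, which are not replicates of a condition, and neighbouring regions of 1 host are not independent.

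Within the intron the summits lay near the middle in the median. The relative position, from 0 at the 5' end to 1 at the 3' end, had a median of 0.487 for members and 0.469 for weaker regions. The nearest coding start was 1747 bp away in the median for members and 1575 bp for weaker regions, and it lay within 2000 bp for 57.2% of members and 59.9% of weaker regions. That odds ratio was 0.895 with a 95% interval of 0.710 to 1.13 and did not pass (Fisher's exact test, adjusted p = 0.38). Of the members, 137 (42.8%) lay over 2000 bp and 26 (8.1%) over 5000 bp from any coding start, against 40.1% and 7.6% of weaker regions.

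A further annotated start of the same host lay downstream of the summit for 154 members (48.1%), against 1016 weaker regions (28.7%). The odds ratio was 2.30 with a 95% interval of 1.83 to 2.90 (Fisher's exact test, two-sided, adjusted p = 9.5e-12 over 5 comparisons added after the data were seen). For 55 members (17.2%) such a start lay 1001 to 2000 bp downstream, against 282 weaker regions (7.98%). Examples are lag-1, whose member lay 1551 bp before a further start, and rin-1, whose member lay 1570 bp before one. The annotated starts were not measured in these larvae.

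Chromosome X held 66 members (20.6%), against 532 weaker regions (15.05%) and 16.8% of the eligible intronic bases. The odds ratio was 1.47 with a 95% interval of 1.10 to 1.95 (Fisher's exact test, two-sided, adjusted p = 0.015). The call was lost with single replicates. The odds ratio was 1.07 with the 2000 strongest regions of replicate 2 alone and 1.27 with those of replicate 1 alone, and neither passed (Fisher's exact test, adjusted p = 0.72 and adjusted p = 0.13). Leaving soft-masked windows out of the pooled list gave 1.22, which did not pass either (Fisher's exact test, two-sided, adjusted p = 0.22). Chromosome V held the fewest, 38 members or 7.57 per Mb of eligible intron, against 13.9 per Mb on X.

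Among the comparisons of position, small noncoding RNA genes gave the largest odds ratios. Within 500 bp of a tRNA, snoRNA, snRNA, miRNA or rRNA gene lay 50 members (15.6%), against 62 weaker intronic regions (1.75%). The odds ratio was 10.4 with a 95% interval of 7.01 to 15.4 (Fisher's exact test, two-sided, adjusted p = 8.9e-25). Strong promoter regions stood between them, with 61 of 1102 (5.54%), and the odds ratio of members over promoter regions was 3.16 with a 95% interval of 2.12 to 4.70 (Fisher's exact test, adjusted p = 6.9e-08, an added comparison). The comparison with promoter regions was not adjusted for how often such genes lie in introns and in promoters at large. Of the 50 members, 29 were nearest to a tRNA gene, 15 to a snoRNA gene, 5 to a miRNA gene and 1 to a snRNA gene. With the lists of single replicates the odds ratio over weaker regions was 10.8 in replicate 2 and 8.48 in replicate 1. Over intronic regions of middle rank, from below the 2000 strongest down to rank 15000, it was 5.40, and within 1000 bp it was 6.62.

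The tRNA regions sat on the tRNA genes themselves. The 29 members were 9.06% of all, against 29 of 3536 weaker regions (0.820%), an odds ratio of 12.1 with a 95% interval of 7.11 to 20.4 (Fisher's exact test, two-sided, adjusted p = 4.0e-16). It was 8.83 in replicate 2 alone, 7.94 in replicate 1 alone and 5.73 over intronic regions of middle rank. For 21 of the 29 members the summit lay inside the tRNA gene, and the farthest lay 72 bp from it. Among the 29 weaker regions the summit was inside for 7 and within 100 bp for 17. The host and the tRNA gene had the same strand in 17 cases and opposite strands in 12, and 29 different tRNA genes were involved.

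By RefSeq product the tRNA genes were of 14 kinds, led by tRNA-Asp with 5, and by tRNA-Arg, tRNA-Gly, tRNA-Ile and tRNA-Leu with 3 each. The strongest was tRNA-Ile gene T21B4.t1 in an intron of the collagen gene col-85, whose window is printed above, with a signal of 161. After it came the tRNA-Leu gene C14B9.t2 in C14B9.3, with 149, and the tRNA-Asp gene F38G1.t2 in egl-17 (a fibroblast growth factor gene), with 138.3. Of 245 tRNA genes inside eligible introns, 31 (12.7%) had a member within 500 bp, and 27 (11%) had a weaker intronic region, although weaker regions are far more numerous. tRNA genes of 1 kind have near-identical copies, and how reads that match several places were treated is not given in the sources used here, so signal at a single copy is uncertain.

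snoRNA regions sat beside the gene more often than inside it. Of the 15 members near a snoRNA gene, 2 had the summit inside and 14 lay within 70 bp. The strongest members near any small RNA gene were in dhc-4, 29 bp from the snRNA gene R07E5.16 (signal 221), in catp-8 (a P-type ATPase), 30 bp from the snoRNA gene C10C6.8 (197), and in cutl-18, 12 bp from the snoRNA gene T03F7.8 (174). They were followed by haf-9, an ABC transporter gene, 64 bp from the snoRNA gene ZK484.9 (165), and by col-85.

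The 50 members near small RNA genes and the other 270 differed in other ways too, given here as values without a test. The median intron was 482 bp in the 50 and 3037 bp in the 270. The median GC content of the window was 52.5% in the 50 and 42.6% in the 270. A first intron held 10 of the 50 (20%) and 141 of the 270 (52.2%), and TAATTG occurred in 1 of the 50 and 35 of the 270. With regions within 500 bp of such genes left out of all groups, the odds ratio for a first intron was 2.28 and the difference in mean log10 intron length was 0.429.

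**Figure D3:**
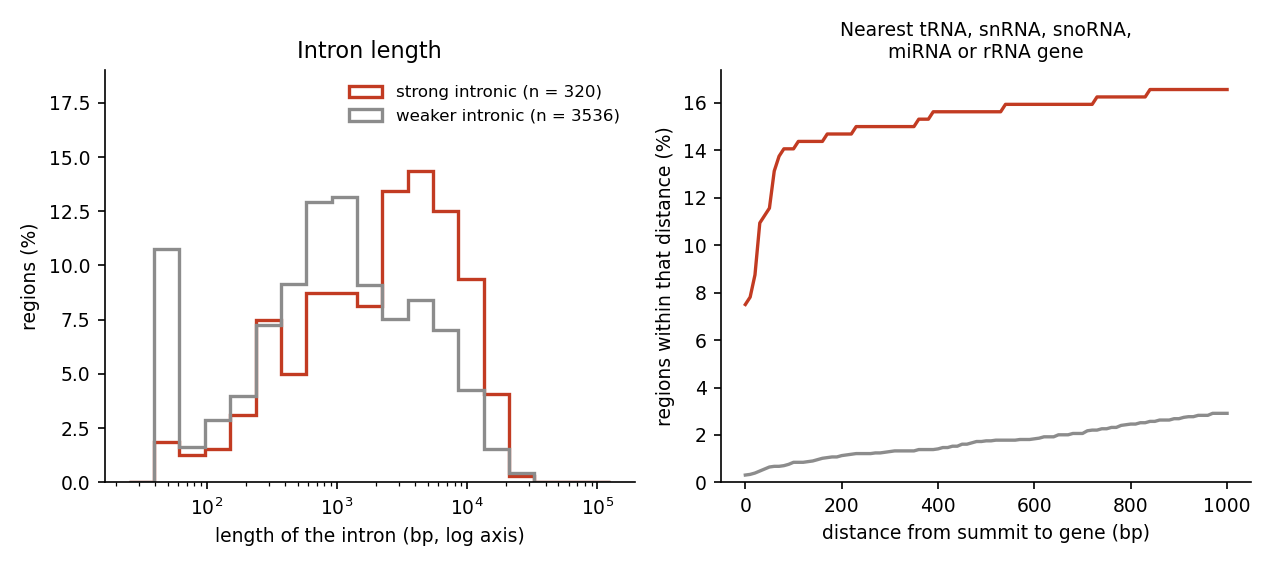
Left, distribution of intron length (log axis) as a percentage of strong intronic regions (red) and of weaker intronic regions (grey), with medians of 2633 and 952 bp. Right, the percentage of each with a tRNA, snRNA, snoRNA, miRNA or rRNA gene within the distance on the horizontal axis; the red line is steep below 100 bp and reaches 15.6% at 500 bp, where the grey line is at 1.75%.

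The members were richer in G and C at the summit than the weaker regions and the rise was wider than in promoter regions. The mean GC content of the window was 44.3% in members, against 38.4% in weaker intronic regions, a difference of 5.88 percentage points (permutation test of 100000 resamples, two-sided, adjusted p = 3.0e-05, from the smallest p they can give). It was 45.8% in strong promoter regions, a difference of -1.55 points for members over promoter regions (permutation test, adjusted p = 0.0028). With promoters of 2000 bp that difference was -0.786 and with replicate 2 alone -1.005, and neither passed (permutation test, adjusted p = 0.18 and adjusted p = 0.081). With regions near small RNA genes left out it was -2.76. In the 25 bp bin centred 88 bp below the summit coordinate the mean was 41.7% in members, against 37.4% in strong promoter regions.

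**Figure D4:**
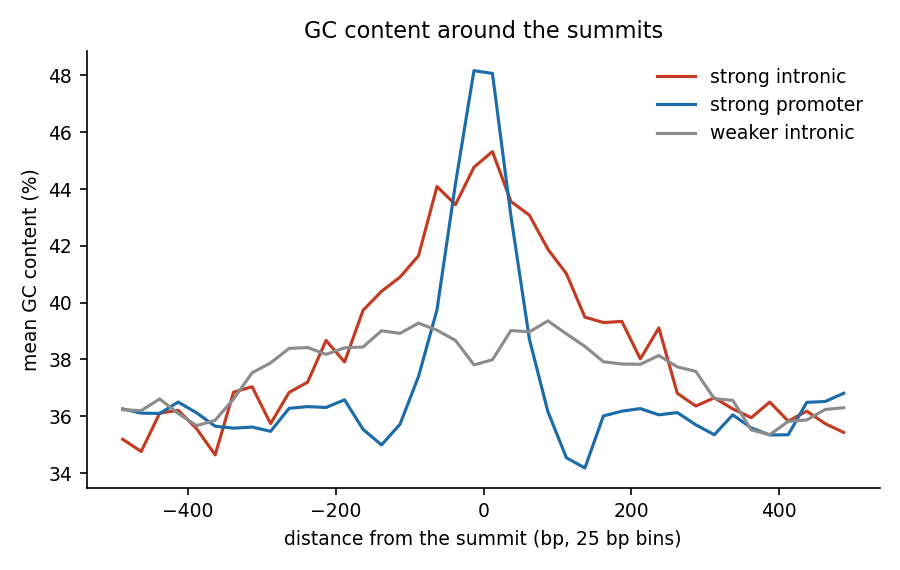
Mean GC content in 25 bp bins (vertical axis, %) against distance from the summit (horizontal axis, bp) for strong intronic, strong promoter and weaker intronic regions. Members have a lower and wider peak than promoter regions. Weaker regions rise less, to 39.4% in the bin centred 87 bp above the summit coordinate, and dip to 37.8% in the bin centred 13 bp below it.

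Sequence that the reference marks as repetitive (soft-masked) was rare at the summits. It covered more than 50% of the window in 15 members (4.69%), against 968 weaker intronic regions (27.4%), an odds ratio of 0.131 with a 95% interval of 0.0773 to 0.220 (Fisher's exact test, two-sided, adjusted p = 1.3e-23, an added comparison). It was 0.237 with replicate 2 alone. In strong promoter regions the share was 8.53%.

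TAATTG or CAATTA occurred in 36 members (11.2%, exact Clopper-Pearson 95% interval 8.01 to 15.2%), against 243 weaker intronic regions (6.87%). Among all 30000 windows the share was 7.09%. Compared within strata of equal GC count, the odds ratio over weaker regions was 2.35 with a 95% interval of 1.59 to 3.48 (exact stratified test, two-sided, adjusted p = 1.5e-04). The call was lost without replicate 1: with the 2000 strongest regions of replicate 2 alone it was 1.41 (exact stratified test, adjusted p = 0.24). With those of replicate 1 alone it was 2.72.

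The difference from strong promoter regions did not pass, and the motif did not peak at the summit. Strong promoter regions held it in 94 of 1102 (8.53%), an odds ratio of members over promoter regions of 1.32 with a 95% interval of 0.869 to 1.99 (exact stratified test, adjusted p = 0.24). Windows 400 bp towards lower coordinates held it in 16 of 320 members (5%), and regions with the motif at the summit but not in the flank outnumbered the opposite by 2.33 (exact McNemar test, two-sided, adjusted p = 0.011). With the flank towards higher coordinates that ratio was 1.6 (exact McNemar test, adjusted p = 0.17). In bins of 50 bp the share was 5.31% at the summit and 3.44 to 5.94% in the bins up to 250 bp away, so no peak stood out.

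A repeat of GA had the smallest p of all short sequences tested. GAGAGA or TCTCTC occurred in 74 members (23.1%, exact Clopper-Pearson 95% interval 18.6 to 28.1%), against 211 weaker intronic regions (5.97%) and 9.38% of all 30000 windows. The odds ratio over weaker regions was 3.84 with a 95% interval of 2.80 to 5.26 (exact stratified test, two-sided, adjusted p = 1.5e-14). It was 2.70 with the regions of replicate 2 alone, 3.92 with those of replicate 1 alone and 2.41 over intronic regions of middle rank. Strong promoter regions had it in 19.1%, and the odds ratio of members over them was 1.35 with a 95% interval of 0.991 to 1.85 (exact stratified test, adjusted p = 0.061, an added comparison).

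The GA repeat was spread around the summit. In 50 bp bins its share in members was 10.3% at the summit, 15.6% and 15.9% in the bins 50 bp to either side and 4.69% and 2.81% at 250 bp. In weaker intronic regions it stayed between 2.57 and 3.65%. In the window of zfp-1 printed above it lies on the plus strand above the summit coordinate.

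GAGCGC or GCGCTC was rarer in members than in strong promoter regions. It occurred in 14 members (4.38%), against 179 strong promoter regions (16.2%), an odds ratio of 0.277 with a 95% interval of 0.158 to 0.485 (exact stratified test, two-sided, adjusted p = 2.2e-07, an added comparison). In weaker intronic regions the share was 2.06%, with an odds ratio of members over them of 1.36 (exact stratified test, adjusted p = 0.38). That comparison passed with replicate 1 alone, at 2.15 (exact stratified test, adjusted p = 0.026). The 50 bp bin on the summit held it in 2.19% of members and 10.6% of strong promoter regions.

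Of the other short sequences fixed for testing, CACGTG, the palindromic E-box, occurred in 25 members (7.81%), against 85 weaker intronic regions (2.40%), with an odds ratio of 2.53 (exact stratified test, adjusted p = 7.2e-04). TAATTA occurred in 18 members (5.62%), against 142 weaker regions (4.02%), with an odds ratio of 2.43 (exact stratified test, adjusted p = 0.006). This was 1.44 with replicate 2 alone, 1.43 without GC strata and 1.94 with promoters of 2000 bp, and none of these passed (exact stratified test, adjusted p = 0.32, 0.22 and 0.086). TGATAA was in 8.44% of members and 7.95% of weaker regions, and TGTTTAC in 1.88% and 1.19%, and neither passed (exact stratified test, adjusted p = 0.075 and adjusted p = 0.18). With promoters of 500 bp both passed, at odds ratios of 1.61 and 2.46 (exact stratified test, adjusted p = 0.024 and adjusted p = 0.038).

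All 6-mers, each with its reverse complement, were tested in the same way. Of these, 104 (5.00%) passed an adjusted p of 0.05, 62 of them more frequent and 42 less frequent in members than in weaker intronic regions. The 5 of smallest p were GAGAGA itself and, sharing letters with it, AGAGAA and then AAGAGA and AGAGAG and last GAGAAA. The sequence AGAGAA occurred in 22.5% of members and 8.74% of weaker regions, with an odds ratio of 3.40 (exact stratified test, adjusted p = 1.0e-10). Odds ratios of the other 3 lay between 2.36 and 3.12, and the lowest, of GAGAAA, did not pass with replicate 2 alone, at 1.63 (exact stratified test, adjusted p = 0.087). The next, AAATTT, chosen after the values were seen, was less frequent, in 6.88% of members and 24.4% of weaker regions, with an odds ratio of 0.343 (exact stratified test, adjusted p = 9.0e-05).

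**Figure D5:**
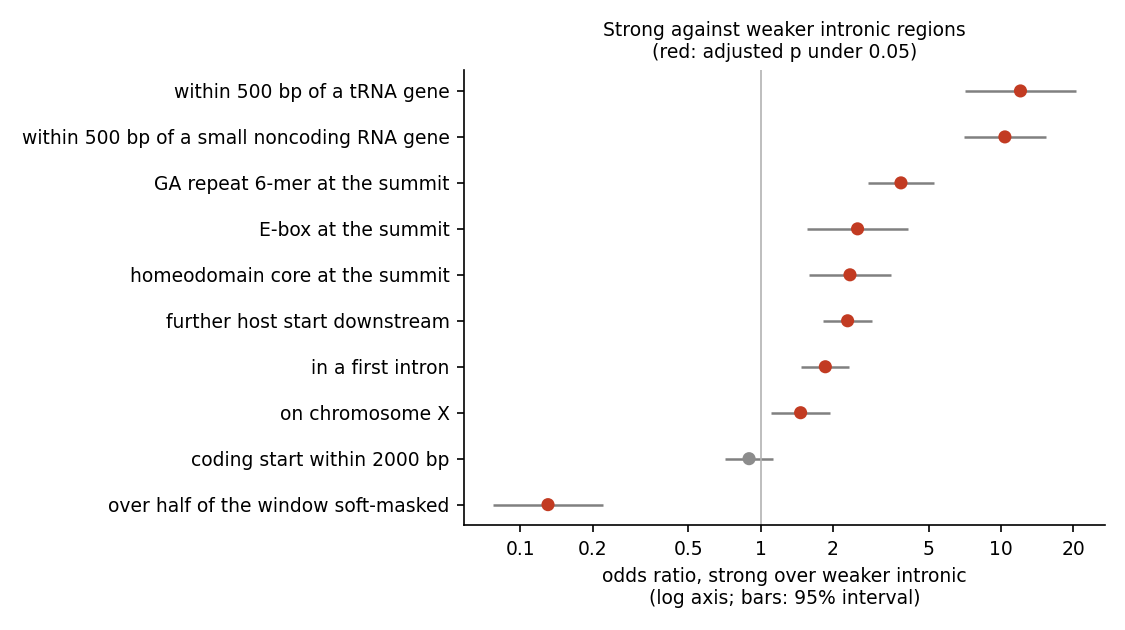
Odds ratios of strong over weaker intronic regions (log axis) with 95% intervals, red where the adjusted p is under 0.05. The homeodomain core is TAATTG, the GA repeat GAGAGA and the E-box CACGTG, all stratified by GC count; proximity to tRNA genes (12.1) and to small RNA genes in general (10.4) lies farthest to the right, and soft-masked sequence (0.131) farthest to the left.

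The host genes were described by 24 lists of gene names, as counts beside the share of each list in the weaker intronic regions. For some lists the share in the eligible intronic bases is given too. Over all genes, 262 of 17883 genes with eligible intronic bases (1.47%) hosted a member. No list was tested, and a gene in several lists counts in each.

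Of the 24 lists, that of transcription factors outside the families below held the most members. Zinc finger, bHLH and other transcription factor genes held 25 members in 15 hosts, which is 7.81% of members, against 1.78% of weaker regions and 1.43% of intronic bases. The strongest were in lag-1 (240), egl-27 (157) and sma-9 (140), a Schnurri-like cofactor of TGF-beta signalling. Homeobox genes held 8 members (2.5%, against 0.877% of weaker regions), led by vab-15 (262), pax-3 (156) and mab-5 (99.5), a Hox gene. Nuclear hormone receptor genes held 8 (2.5%, against 2.09% of weaker regions and 1.56% of intronic bases), led by nhr-19 (177), nhr-14 (136) and daf-12 (113). The forkhead list held the 4 members of fkh-7 (1.25%, against 0.452% of weaker regions and 0.208% of intronic bases).

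Genes of developmental timing and signalling were hosts as well. The heterochronic list, the genes that order larval fates in time, had 5 hosts among 19 genes with 8 members (2.5%, against 0.65% of weaker regions), led by lin-14 (126), daf-12 (113) and lin-42 (105), a Period-like gene. The insulin and TGF-beta list had 6 hosts with 9 members (2.81%, against 1.1% of weaker regions), led by pdk-1 (146), sma-9 (140) and daf-14 (118), a Smad gene. Of these members 8 lay in first introns. The Wnt list had 4 members in 4 hosts (1.25%, against 0.905%), led by mom-1 (199), lin-17 (131), a Frizzled receptor, and lit-1 (124), a Nemo-like kinase, and the Notch list had 2 (0.625%, against 0.481%), in lag-1 (240) and sel-8 (85.1), the Mastermind-like coactivator.

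The touch receptor neuron list, the one nearest to the known role of VAB-15, had 7 members in 4 of 36 genes (2.19% of members, against 0.509% of weaker regions), and vab-15, lin-14 and egl-44, a TEAD factor (88.8), led it. Of the 7, lin-14, counted in the heterochronic list too, held 3, and vab-15, the tagged gene, held 2 that overlap. The members of this list are thus not independent. Calcium and sodium channel genes had 0 members, against 0.622% of weaker regions, and neuropeptide and neuropeptide receptor genes had 0, against 1.22%. The shares of these lists in intronic bases were 0.846% and 1.58%. Potassium channel genes had 3 (0.938%, against 0.82% of weaker regions and 1.44% of intronic bases), in twk-42 (171), twk-5 (142) and kvs-5 (92.3). The twk-5 summit lay 59 bp from a snoRNA gene. Neurotransmitter and gated channel receptor genes had 2 (0.625%, against 0.735% of weaker regions and 1.52% of intronic bases), in unc-49 (390) and acr-18 (96.6). The acr-18 summit lay 25 bp from a tRNA gene. The chemoreceptor list of 1363 genes had 1 (0.312%, against 2.06% of weaker regions and 3.36% of intronic bases), in srt-52 (86.6).

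Each list of neuronal, muscle and cuticle structure had 4 or 5 members. Axon guidance and adhesion genes had 5 members (1.56%, against 3.05% of weaker regions), led by him-4 (119), a hemicentin, ptp-3 (98.7), a receptor phosphatase, and unc-73 (86.3). The him-4 summit lay inside a tRNA gene. Synaptic genes had 5 (1.56%, against 1.1%), led by snt-4 (110), a synaptotagmin, ric-7 (107) and unc-43 (90.7), the CaM kinase II. Muscle genes had 5 (1.56%, against 1.41%), led by vab-10 (159), a spectraplakin, zyx-1 (113), zyxin, and mup-4 (91.9). Collagen and cuticle genes had 4 (1.25%, against 0.566%), led by col-85 (161), dpy-31 (100.8) and col-99 (89.1), of which col-85 and col-99 hold a tRNA gene at the summit.

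Among the remaining lists, kinase and phosphatase genes had 12 members (3.75%, against 2.38% of weaker regions), led by cmk-1 (130), egl-4 (125) and src-1 (105). RNA binding and splicing genes had 8 (2.5%, against 1.07%), led by asd-2 (159), mex-3 (149) and mbl-1 (141). Transporter genes had 8 (2.5%, against 2.38%), led by kcc-2 (502), catp-8 (197) and haf-9 (165). Chromatin regulators had 7 (2.19%, against 0.99% of weaker regions and 1.4% of intronic bases), led by zfp-1 (257), mix-1 (147) and mdt-27 (113). Of these 7, zfp-1 held 4. Translation genes had 1 (0.312%, against 0.339%), in eif-2Bdelta (121). Among the hosts named here, the summit in src-1 lay 29 bp from a tRNA gene. The summits in mix-1, catp-8 and haf-9 lay 59, 30 and 64 bp from snoRNA genes.

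For single members the summit lay inside a region of only 1 replicate's list. The summit in daf-12, at rank 575 in replicate 1, fell inside none of the 30000 regions of replicate 2. The same held for daf-14, at rank 344 in replicate 1. The member in pot-3 was the reverse case, at rank 111 in replicate 2 and in no region of replicate 1. These 3 were picked after their values were seen, among 13 members that were missing from 1 list. A replicate region that overlaps a member but leaves out its summit counts as missing here.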

How the data were processed

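The series holds ChIP-seq peak lists of 2 biological replicates. Each deposited ce11 list holds 30000 regions with the authors' signal value, a deposited -log10 q-value and a summit offset. Per the notes beside the deposited files, the lists were made from alignments set against a control; aligner, peak caller, depth and the treatment of reads with several matches were not given in the sources used here. Signal was used to rank and describe regions within a list, and all members had q at or under 0.01 (-log10 q of 2.03 to 3.05).

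Genes came from Ensembl release 115 (WBcel235), sequence and tRNA products from RefSeq WBcel235. The rule for the members was given; members, gene lists and tests were chosen with earlier results of these data known. A member counted as found in a replicate where its summit lay inside a region of that list. Windows reached 50 bp to either side of the summit. Differences in share went through Fisher's exact test, motifs with an exact test stratified by GC count (Mantel-Haenszel odds ratio), means by permutation with 100000 resamples, all two-sided, with Benjamini-Hochberg adjustment over 18 tests, over all 6-mers and over 5 added tests. Named were the hosts of the 20 strongest members, hosts of 3 or more members, vab-15, the 3 strongest hosts of each list, the 5 6-mers of smallest p, the 5 strongest members near small RNA genes and the regions at the edge of the choice. Of the 24 lists, 1 is not reported here. The src genes were moved out of the chemoreceptor list after values were seen. Procedures were tested on simulated data. Software was Python 3.11.15, numpy 2.4.6, pandas 2.3.3, scipy 1.17.1 and matplotlib 3.10.9. Alternatives changed the number of regions, promoter length, windows, distances, strata, backgrounds and replicates; of 18, 2 were added after the data were seen.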

Additional observations from a re-analysis of the deposited data

How the results depend on the processing

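Tests were repeated under those of 18 alternatives that apply to them, 2 of them added after the data were seen, changing 1 choice at a time; of 316 values, 276 kept their direction and their side of the threshold or, for counts, stayed within 1.5 times the main count. The distance to tRNA and small RNA genes, intron length, first introns, GC content over weaker regions, downstream starts, soft-masked sequence and GAGAGA over weaker regions kept both in every alternative run for them, though not their size. No paired analysis was possible because the series has 1 group. Depth is unknown, the lists are of preset length, and regions near the edge of the choice are interchangeable.

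Taking 1000 regions left 131 members, and the number of members was 312 to 331 with single replicates. It was 376 with promoters of 500 bp and 242 with promoters of 2000 bp, against 320. The count of 6-mers past the threshold was 22 with 1000 regions, 42 with promoters of 2000 bp, 15 with weaker regions of the ranks below 2000 down to 15000, 41 with 61 bp windows, 194 with windows of 100 bp on either side, 261 without GC strata and 36 without soft-masked windows, and 31 to 107 with single replicates, against 104; the cause was not tested.

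With single replicates TAATTG ran between 1.41 and 2.72 over weaker regions, between 0.813 and 1.43 over promoter regions and between 1.22 and 1.95 against flanks; GC content over promoter regions ran between -1.65 and -1.005 points and the X odds ratio between 1.07 and 1.27. TGTTTAC ran between 0.859 and 2.54. TAATTG over promoter regions was 0.985 with 61 bp windows. Against flanks it was 1.73 with 61 bp windows, 1.52 with windows of 100 bp on either side and 1.6 with the flank towards higher coordinates. GAGCGC over weaker regions was 0.805 with 61 bp windows, and passed at 2.69 with 1000 regions, 2.15 with replicate 1 alone and 2.17 without GC strata. TGATAA passed at 1.61 with promoters of 500 bp, 2.03 with replicate 1 alone and 1.87 with windows of 100 bp on either side, and GAGAAA did not pass at 2.12 with 1000 regions. Within 1000 bp the tRNA odds ratio was 7.52, and with 1000 regions that of soft-masked windows was 0.0622. GC content over promoter regions was -0.786 points with promoters of 2000 bp. The odds ratio of being in both replicates, intronic over promoter, which is a description only, was 1.33 with the main settings, 1.63 with promoters of 500 bp and 0.7 without rank bins. It did not pass with the main settings (exact stratified test, adjusted p = 0.16). With promoters of 500 bp and without rank bins it passed in opposite directions (exact stratified test, adjusted p = 0.012 and adjusted p = 0.011), so no direction is taken from it. GAGAGA over promoter regions passed at 1.41 with promoters of 500 bp, 1.38 with windows of 100 bp on either side and 1.63 away from small RNA genes. The X call ended at 1.22 without soft-masked windows. The causes were not tested.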
